A study of Mus musculus with 2 samples.

Results

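The genes described here are 10 transcripts that p53 switches on directly: Mdm2, Ccng1, Cdkn1a, Bax, Apaf1, Perp, Trp53inp1, Phlda3, Polk and Rps27l. They were taken by symbol from the 32285 genes listed in the files, and each symbol matched 1 gene. Their transcripts were counted by single-cell RNA sequencing in E14 mouse embryonic stem cells, a single established line of 129/Ola background grown with serum and leukaemia inhibitory factor. One group, called control, received a control siRNA (a small interfering RNA) and the other, called sonKD, an siRNA against Son, which encodes an RNA-binding protein of nuclear speckles. The labels give no other genetic change. In both groups the siRNA was delivered with the same lipid reagent, and the cells were harvested 24 h later, frozen, thawed, sorted for exclusion of a viability dye and barcoded in droplets. Each group held 1 library, so nothing here has a replicate check, no test was made, and an effect of the knockdown and a difference between libraries cannot be told apart.

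The transcription factor p53, encoded by Trp53, is held low by the ubiquitin ligase Mdm2, and because p53 itself switches on Mdm2 the pair forms a negative feedback loop. When p53 is released from Mdm2 it binds a pair of adjacent 10-base motifs near its target genes and raises transcripts for cell cycle arrest, cell death, DNA damage tolerance and its own shut-off. Embryonic stem cells express p53 without added damage.

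A barcode counted as a cell if it had at least 2500 UMIs (unique molecular identifiers, each marking 1 captured molecule), at least 1000 genes and at most 10% of its UMIs from mitochondrial genes. This gave 4978 control cells with a median of 7737.5 UMIs and 2731 sonKD cells with a median of 11612. Levels are given as CPM, a gene's summed UMIs over all UMIs of the library's cells at 1 common scale, and intervals are at 95% and cover counting error only. Son stood at 169 CPM in control (165 to 173) and 106 in sonKD (102 to 109), a log2 ratio of -0.67. The 10 markers of embryonic stem cells were all detected, summing to 8697 and 9439 CPM, while markers of feeder fibroblasts, primitive endoderm, trophectoderm, mesoderm and neuroectoderm summed to at most 11.8 CPM a list and the 5 markers of 2C-like cells were at 0 in both libraries. Mitochondrial genes took 3.82% of the control and 4.19% of the sonKD cells' UMIs, and barcodes that failed the mitochondrial limit made up 11.2% and 27.9% of those past the other minimums. The libraries shared 2 cell barcodes, 0.0402% of the control and 0.0732% of the sonKD cells.

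Promoters are shown first because the genes were listed as p53 targets and p53 binds the pair of motifs described above. RefSeq promoters of GRCm38.p6, each from 250 bases before to 50 bases after a start site, were found for 8 of the 10 genes at 11 start sites, and Trp53inp1 and Perp had no entry. They were searched for the p53 consensus element, 2 adjacent 10-base motifs with no spacer, with the fixed C and G of each motif required and at most 1 mismatch elsewhere. The element reads the same on both strands, so 1 search covers both. It was found in the promoters of Ccng1, Cdkn1a and Rps27l, that is at 3 of 11 start sites, against 22 of 32841 RefSeq promoters, or 0.0670%. The surrounding sequences are printed 5′ to 3′ on each gene's strand, with the 20-base match in capitals, and stop at annotated exons.

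Ccng1, chr11:40755412-40755531, minus strand, before the gene: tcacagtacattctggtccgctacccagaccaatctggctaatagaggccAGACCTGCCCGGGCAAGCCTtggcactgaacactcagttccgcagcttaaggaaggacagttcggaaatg
Cdkn1a, chr17:29090878-29090975, plus strand, before the gene: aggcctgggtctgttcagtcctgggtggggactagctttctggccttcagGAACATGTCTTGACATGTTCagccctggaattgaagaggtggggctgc
Rps27l, chr9:66946246-66946354, plus strand, in an intron: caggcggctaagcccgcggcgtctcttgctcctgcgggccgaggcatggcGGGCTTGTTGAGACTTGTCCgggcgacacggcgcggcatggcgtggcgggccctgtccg

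The match lay 195 bases before the Ccng1 start site, 51 bases before the upstream Cdkn1a start site and 117 bases before the second Rps27l start site, each with 1 mismatch. For the other 5 genes searched, these letters are not in the window, which says nothing of sites elsewhere in the gene, and a match is a description and not a measured site.

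The first group holds the genes that act back on p53 or on the cell cycle. Mdm2 (ENSMUSG00000020184, GRCm38 chr10:117688875-117710758, minus strand) stood at 141 CPM in control (137 to 144) and 128 in sonKD (124 to 132), a log2 ratio of sonKD over control of -0.14 (-0.20 to -0.08). Ccng1 (ENSMUSG00000020326, chr11:40748552-40755311), which encodes cyclin G1, a partner of Mdm2, stood at 91.7 and 96.8 CPM, a log2 ratio of 0.08 (0.01 to 0.15). Cdkn1a (ENSMUSG00000023067, chr17:29090976-29100727), which encodes the cyclin-dependent kinase inhibitor p21, stood at 50.9 and 48.7 CPM, a log2 ratio of -0.06 (-0.16 to 0.03). Over all 8063 genes that averaged 10 CPM or more the median log2 ratio was -0.12, with intervals below 0 for 51.5% and above 0 for 12.3%. Mdm2, one of the 4 members with an interval below 0, was thus only -0.02 from that median, and at -0.05 with TMM scaling, which sets the libraries level by trimming extreme genes. Ccng1 was one of the 3 members with an interval above 0 and stood at percentile 85.0 of the ratios of all genes. The interval of Cdkn1a included 0.

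The second group acts in cell death. Bax (ENSMUSG00000003873, chr7:45461697-45466898), the pore-forming BCL2 family member, stood at 555 CPM in control (548 to 562) and 490 in sonKD (482 to 497), a log2 ratio of -0.18 (-0.21 to -0.15). Apaf1 (ENSMUSG00000019979, chr10:90989311-91082770), the scaffold of the apoptosome, stood at 25.5 and 22.3 CPM, a log2 ratio of -0.20 (-0.34 to -0.06). Both intervals lay below 0, as for 51.5% of all genes, and the ratios of Bax and Apaf1 were -0.06 and -0.08 from the median of all genes. Perp (ENSMUSG00000019851, chr10:18845020-18857073), a membrane protein of desmosomes that takes part in p53-dependent death, had 36.0 CPM in control (34.1 to 37.8) and 49.8 in sonKD (47.3 to 52.3), a log2 ratio of 0.47 (0.37 to 0.57). Of this group, Perp alone stood higher in the sonKD library.

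Trp53inp1 (ENSMUSG00000028211, chr4:11156431-11174379), whose product assists p53 in the nucleus and takes part in autophagy, stood at 43.3 and 44.5 CPM, a log2 ratio of 0.04 (-0.06 to 0.14). Phlda3 (ENSMUSG00000041801, chr1:135766119-135769136), which encodes a lipid-binding repressor of the survival kinase Akt, stood at 118 and 110 CPM, a log2 ratio of -0.10 (-0.16 to -0.04). Both ratios were near 0, which put Trp53inp1 at percentile 80.4 and Phlda3 at percentile 54.2 of the ratios of all genes.

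The last group serves DNA damage tolerance and the ribosome. Polk (ENSMUSG00000021668, chr13:96480690-96542579), the translesion DNA polymerase kappa, stood at 31.7 and 32.9 CPM, a log2 ratio of 0.05 (-0.07 to 0.17), at percentile 81.9 of the ratios of all genes. Rps27l (ENSMUSG00000036781, chr9:66946086-66949516), a paralogue of the ribosomal protein gene Rps27, stood at 696 CPM in control (688 to 704) and 934 in sonKD (923 to 944), a log2 ratio of 0.42 (0.40 to 0.45). Ribosomal protein genes together took 20.6% of the UMIs of control cells and 23.9% of those of sonKD cells. Rps27 was read after cells were drawn down to equal depth. In cells with at most 3 UMIs summed over the members, Rps27 stood at 28.3 CPM in control and 83.2 in sonKD. In cells with 6 or more in control and 7 or more in sonKD, it stood at 29.1 and 98.2 CPM. Whether the higher Rps27l is part of this wider difference was not tested. Of the 31-base words in the last 500 transcript bases of Rps27l, 23.6% also occur in 5 other annotated genes, and of those of Bax 26.0% occur in the overlapping same-strand gene Gm45808, so the counts of these genes depend on how such reads were assigned. Cdkn1a, Apaf1 and Polk each overlap 1 gene on the opposite strand, and whether the counting used strand is not given in the sources used here.

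**Figure D1:**
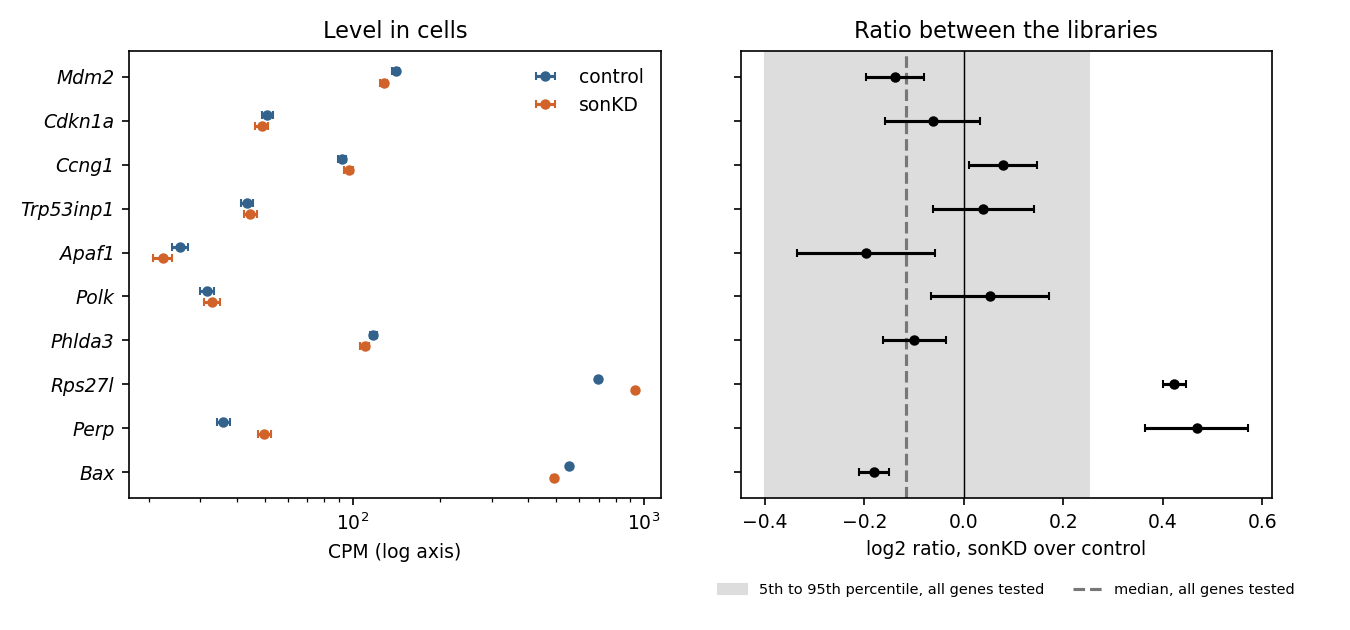
Left, level of each gene in CPM in the control and sonKD libraries on a log axis; right, log2 ratio of sonKD over control with 95% counting intervals, beside the 5th to 95th percentile and the median of all genes tested. Rps27l and Perp, at 0.42 and 0.47, lie to the right of the band that ends at 0.25, and the other 8 genes lie inside it.

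All 10 genes passed the mean of 10 CPM. Rps27l and Perp were the 2 members at least 25% higher in sonKD, at 1.34-fold and 1.38-fold, where 3.5% of all genes tested were that much higher. They stood at percentiles 97.8 and 98.2 of all ratios. No member was at least 20% lower, the same fold downwards, where 10.2% of all genes were. Of the 8063 genes, 282 were higher and 820 lower by this fold, and with TMM scaling the split was 449 higher and 370 lower. The median log2 ratio of the members was -0.01, with 5 above 0 and 5 below, beside 25.1% of all genes above 0. Cdkn1a changed sign with TMM scaling, to 0.03, and without ribosomal protein and mitochondrial genes in the total, to 0.01.

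Rps27l and Bax held most of the members' UMIs, and without them the remaining 8 genes summed to 538 CPM in control and 533 in sonKD, a log2 ratio of -0.01 (-0.04 to 0.02). The sum over all 10 was 1789 and 1956 CPM, a log2 ratio of 0.13 (0.11 to 0.14). The sum of 10 was higher in sonKD by less than Rps27l alone.

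The regulators of p53 had log2 ratios close to 0, which is above the median of all genes, -0.12. Trp53 was at 307 CPM in control and 329 in sonKD, a log2 ratio of 0.10 (0.06 to 0.14). That is 0.22 above the median and at percentile 87.0 of all genes tested. Mdm4, the partner of Mdm2 that inhibits p53, had a log2 ratio of 0.01, Ppm1d, a phosphatase that turns the p53 response off, -0.05, and Usp7, a deubiquitinase of Mdm2 and p53, -0.05. In a further list of 28 genes of the p53 pathway, 22 passed 10 CPM, with a median log2 ratio of -0.02, 10 above 0 and 12 below. The highest were Ddit4l at 0.41, the long noncoding RNA Trp53cor1 at 0.40 and the nuclease gene Aen at 0.28, and the lowest were Fdxr at -0.50 and the sestrin genes Sesn2 at -0.35 and Sesn1 at -0.27. Ddit4l and Trp53cor1 were past the fold of 25% higher and Fdxr and Sesn2 past that of 20% lower. This is 2 of 22 genes, or 9.09%, in each direction, beside 3.5% of all genes higher and 10.2% lower.

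To compare shares of positive cells at equal depth, 2500 UMIs were drawn at random from every cell, and no cell was too shallow for this. Mdm2 then had a UMI in 23.4% of cells in control (22.2 to 24.6) and in 23.5% in sonKD (21.9 to 25.1). Phlda3 was found in 24.1% and 23.7%, Ccng1 in 20.4% and 22.0%, and Cdkn1a in 12.2% and 11.4%. Lower shares were found for Trp53inp1 at 9.98% and 10.3%, Polk at 8.24% and 8.64% and Apaf1 at 6.23% and 5.05%. The intervals of these 7 genes overlapped between the libraries.

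Rps27l had a UMI in 81.6% of cells in control (80.5 to 82.7) and in 88.7% in sonKD (87.4 to 89.8). Perp was found in 8.48% (7.72 to 9.29) and 11.1% (9.98 to 12.4). Bax went the other way, with 72.3% (71.0 to 73.5) and 69.0% (67.2 to 70.7). These were the 3 members whose intervals did not overlap, and each had the direction of its level. Of all 8063 genes, 4.76% had a higher share in sonKD and 15.6% a lower one with intervals apart. Without thinning, every member had a higher share in the deeper sonKD library, for instance Mdm2 at 46.5% and 53.5%, so unthinned shares follow depth. For 9 members the unthinned intervals were apart, as for 83.5% of all genes, while 0.769% had a lower share in sonKD with intervals apart.

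**Figure D2:**
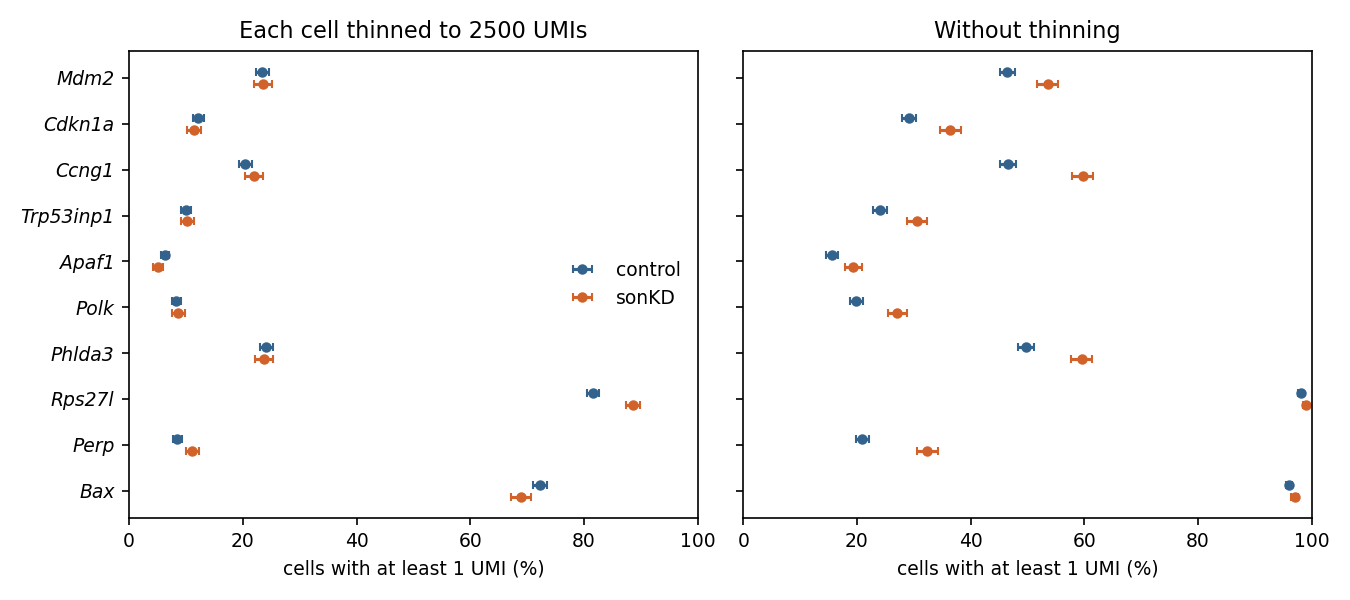
Share of cells with at least 1 UMI of each gene (%), with each cell thinned to 2500 UMIs on the left and without thinning on the right, for control and sonKD with exact binomial 95% intervals. After thinning the libraries lie close together except for Rps27l, Perp and Bax, while without thinning every sonKD point lies to the right of its control point.

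No cell type in these libraries should lack the members, so free RNA was read from droplets of 100 to 500 UMIs. In these, Mdm2 stood at 75.3 CPM in control and 73.6 in sonKD, 0.536 and 0.577 times its level in cells. Polk was lowest against cells, at 0.182 and 0.104 times, followed by Apaf1 at 0.303 and 0.241 times. Rps27l, at 1.74 and 1.65 times, Phlda3, at 1.36 and 1.31 times, and Bax, with intervals of 1.22 to 1.27 and 1.07 to 1.12 times, were higher in droplets than in cells. Shares of positive cells include free RNA to an extent not measured here. Perp stood at 37.2 and 52.9 CPM in droplets, a log2 ratio between the libraries of 0.51 (0.37 to 0.65), beside 0.47 in cells. In the barcodes over 10% mitochondrial UMIs, left out of the cells, 3 members had a ratio of sonKD over control with an interval above 0 and 1 with an interval below, where 6.65% and 22.5% of 8716 genes averaging 10 CPM or more did.

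Among cells the members were spread unevenly. Of 4978 thinned control cells, 3812 had no UMI of Mdm2, 757 had 1 and 1 cell had 15 of its 2500 UMIs from Mdm2, and in sonKD the highest cell had 10. The variance of Mdm2 over its mean was 2.94 in control and 2.21 in sonKD, where counting alone gives about 1 and where genes of like mean, from 20% below to 25% above, had medians of 1.05 and 1.04. No gene of like mean was above Mdm2 in control, out of 492, and 2 of 491 were in sonKD. Phlda3, at 1.78 and 1.79, and Trp53inp1, at 1.77 and 1.50, also stood far above genes of like mean, whose medians lay between 1.02 and 1.04. Rps27l, at 1.10 and 1.14, and Bax, at 1.11 and 1.06, stood among genes of their level, with 58.9% and 50.0% of like genes above Rps27l and 33.3% and 70.4% above Bax.

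The members were next compared in pairs, by the share of cells with both genes against the product of the single shares. Of 45 pairs, the share of cells positive for the second gene was higher among cells positive for the first, with intervals apart, in 30 pairs in control and 28 in sonKD, and in 28 pairs in both. No pair was apart in the other direction. Pairs of other genes were not counted, so no share over all genes stands beside these numbers. Whether joint detection is particular to the members was not tested. The 28 pairs apart in both libraries were exactly the pairs among the 8 genes other than Rps27l and Bax, a set named after these values were seen. Their median ratio was 1.74 in control, from 1.35 to 2.81, and 1.77 in sonKD, from 1.41 to 2.77. For the other 17 pairs, which hold Rps27l or Bax, the medians were 1.01 in both libraries. The ratio cannot exceed 1 over the larger single share. In control and sonKD, Rps27l was found in 81.6% and 88.7% of cells and Bax in 72.3% and 69.0%. The ratios of their pairs were thus bounded near 1, so the size of the gap to the 28 pairs does not measure a difference in joint detection.

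Mdm2 shows the size of this. Trp53inp1 was found in 22.1% of control cells with Mdm2 (19.8 to 24.6) and in 6.27% of those without (5.52 to 7.09). In sonKD these shares were 21.1% and 6.94%. Phlda3 was found in 40.0% of control cells with Mdm2 and in 19.3% of those without, and in 39.3% and 18.9% in sonKD. For Rps27l, the share in control was 81.7% with Mdm2 and 81.6% without. The highest ratios to the product were those of Apaf1, at 2.81 with Trp53inp1 and 2.70 with Polk in control and 2.76 and 2.77 in sonKD. These ratios rest on 87 and 69 control cells and on 39 and 33 sonKD cells with both genes, and rarer genes can reach higher ratios. By Pearson r over cells, the highest pair was Mdm2 with Trp53inp1 in control, at 0.338, and Mdm2 with Phlda3 in sonKD, at 0.312. Apaf1 with Trp53inp1 had an r of 0.227 and 0.173.

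**Figure D3:**
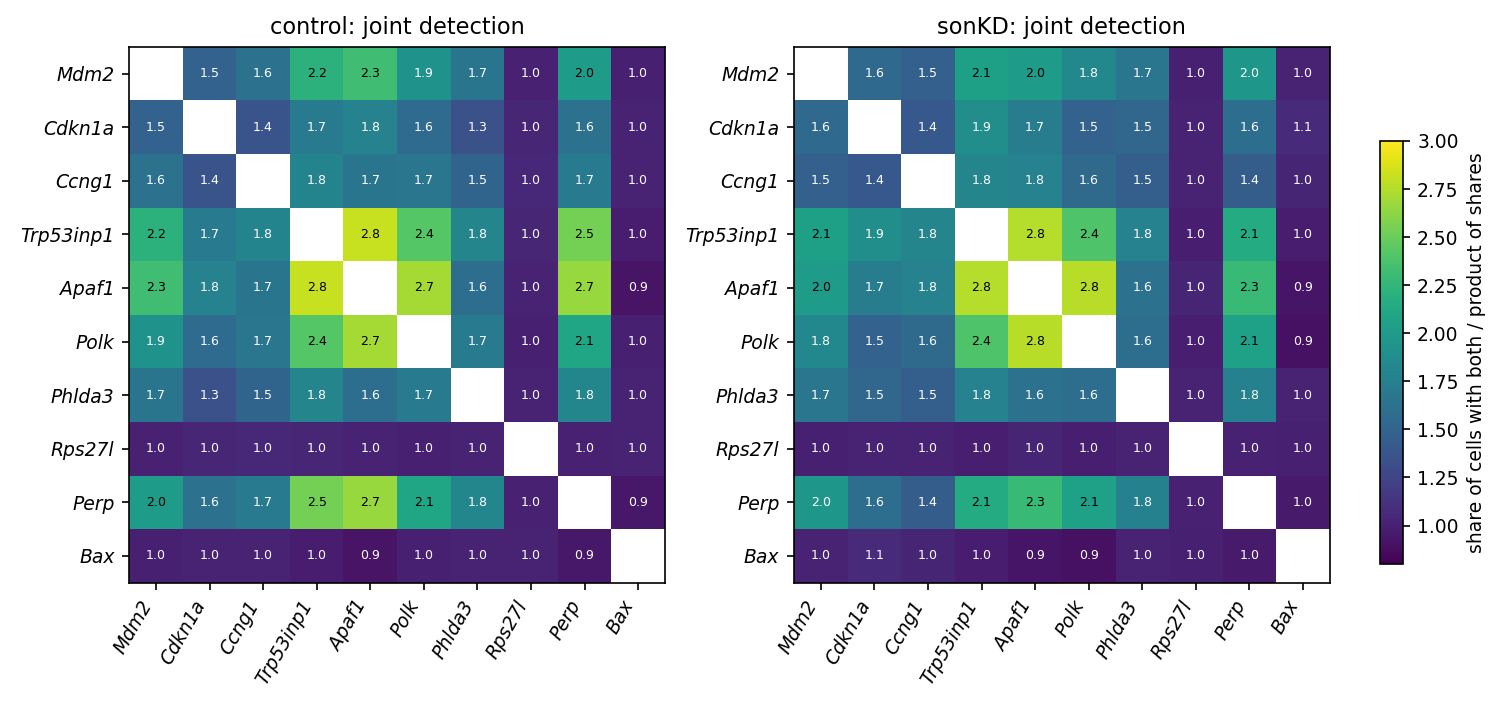
Share of cells in which both genes of a pair were found, divided by the product of the single shares, in control (left) and sonKD (right) at 2500 UMIs per cell, with the ratio written in each square. Squares among the 8 genes other than Rps27l and Bax lie between 1.35 and 2.81, and the rows of Rps27l and Bax lie close to 1 in both libraries. The ratio cannot exceed 1 over the larger single share, which bounds the rows of these frequently detected genes near 1.

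Cells were then ranked by the summed UMIs of the other 9 members, and cells at or below the lower quartile of that sum were set against cells at or above the upper quartile. Mdm2 stood at 77.1 CPM in 1286 control cells with at most 2 such UMIs and at 355 CPM in 1312 cells with 6 or more, a ratio of 4.60 (4.004 to 5.29). In sonKD it stood at 77.7 CPM in 1009 cells with at most 3 and at 260.5 CPM in 903 cells with 6 or more, a ratio of 3.35 (2.85 to 3.96). The ratio of Trp53inp1 was 5.54 (4.45 to 6.94) and 4.53 (3.34 to 6.25). With another random draw of UMIs the ratio of Trp53inp1 in control was 3.56, so its place above Mdm2 there rests on the draw. The ratios of Apaf1, Perp, Phlda3, Polk and Ccng1 lay between 3.08 and 4.02 in control and between 2.53 and 4.55 in sonKD, and Cdkn1a stood at 2.30 (1.91 to 2.79) and 2.39 (1.84 to 3.12). Rps27l, at 1.16 (1.10 to 1.22) and 1.11 (1.04 to 1.18), and Bax, at 1.13 (1.06 to 1.205) and 1.02 (0.935 to 1.10), had the smallest ratios. Among cells with at most 5% mitochondrial UMIs, the ratio of Mdm2 was 2.60 and 2.66 and that of Trp53inp1 2.61 and 3.17 in control and sonKD.

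**Figure D4:**
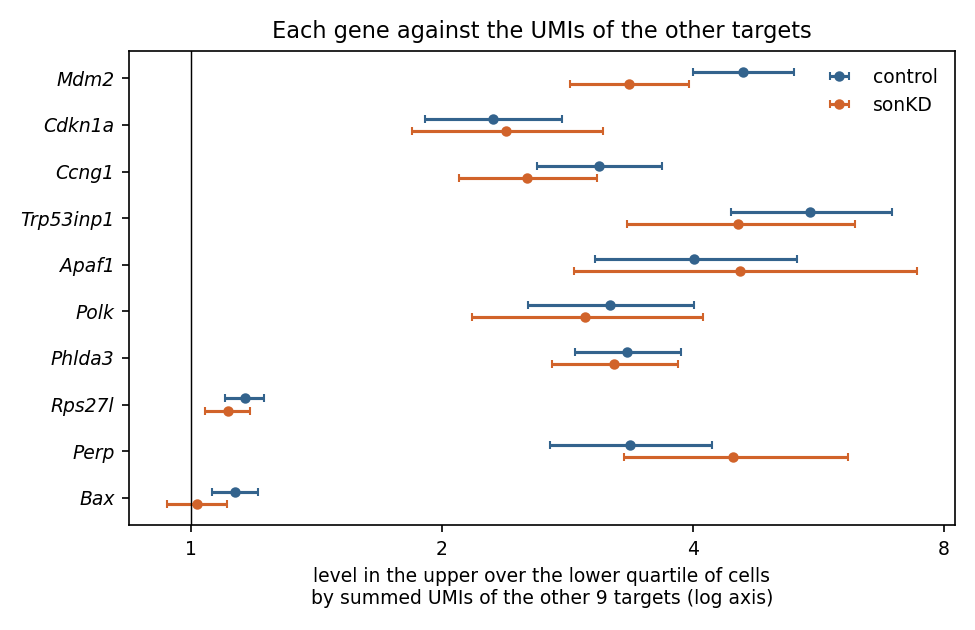
Level of each gene in cells of the upper quartile by summed UMIs of the other 9 members, divided by its level in cells of the lower quartile, on a log axis, with 95% counting intervals for control and sonKD. Rps27l and Bax lie between 1.02 and 1.16, and the other 8 genes lie between 2.30 and 5.54. The cuts on the sum differ between genes and libraries, so sizes are not strictly comparable.

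Over single cells, the Pearson r of Mdm2 with the log of 1 plus the UMIs of the other 9 members was 0.265 over 4978 control cells and 0.242 over 2731 sonKD cells, and no other gene of the 5991 and 5767 ranked had a higher r with that sum. Thinned cells hold few UMIs, but in cells thinned to 5000 UMIs the r of Mdm2 in control was 0.258. What sets the size of these r values was not tested, and the cells of a library share its preparation. The r of Phlda3 was 0.236 and 0.243, that of Trp53inp1 0.248 and 0.200, that of Ccng1 0.218 and 0.212 and that of Perp 0.194 and 0.215, with at most 4 genes higher in either library. Apaf1, at 0.190 and 0.161, Polk, at 0.174 and 0.159, and Cdkn1a, at 0.150 and 0.156, had between 5 and 25 genes above them. Rps27l, at 0.07 and 0.04, had 222 and 609 genes above it, and Bax, at 0.04 and -0.02, had 584 and 3398. Among the 4025 control and 2007 sonKD cells with at most 5% mitochondrial UMIs, the r of all 8 genes other than Rps27l and Bax was lower, in control by more than 1.5 times for 7 of them and in sonKD for 6. There Mdm2 was at 0.150 and 0.185, Trp53inp1 at 0.101 and 0.141, Apaf1 at 0.068 and 0.072 and Polk at 0.067 and 0.089. Rps27l, at 0.074 and 0.088, and Bax, at 0.073 and 0.053, were not below Apaf1 and Polk in control.

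Cells with p21 transcript also had more Mdm2 and Trp53inp1. At 0, 1 and 2 or more UMIs of Cdkn1a, held by 4373, 530 and 75 control cells, Mdm2 stood at 146, 329 and 667 CPM. In sonKD, with 2421, 267 and 43 cells, Mdm2 stood at 134, 294 and 344 CPM, and the intervals of the last 2 overlapped. Trp53inp1 went from 45.0 to 89.1 and 251 CPM in control and from 44.3 to 103 and 186 CPM in sonKD. Apaf1, Polk, Phlda3 and Perp also went up at each step in both libraries, some with overlapping intervals. Ccng1 went from 92.3 to 149 and 208 CPM in control and from 102 to 150 and 149 in sonKD. Bax went from 540 to 543 and 629 CPM in control and from 476 to 557 and 688 in sonKD. Rps27l went from 708 to 777 and 757 CPM in control and from 926 to 999 and 1172 in sonKD.

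Counted by cell, 225 control cells, or 4.52% (3.96 to 5.13), held at least 6 of the 10 transcripts, where the product of the single shares gives 0.943%. In sonKD there were 134, or 4.91% (4.13 to 5.78), where the product gives 1.06%. Among the 8 genes, at least 5 were found in 137 control cells, or 2.75% (2.32 to 3.25), and in 71 sonKD cells, or 2.60% (2.04 to 3.27). All 8 were found in 4 control and 3 sonKD cells. At the other end, none of the 8 was found in 40.2% and 39.1% of cells, where the product gives 28.8% and 27.9%. Cells with many targets and cells with none were both more frequent than the single shares give, and the intervals of the libraries overlapped for each of these counts. The 8 genes were set apart because their pairs were detected together in these same cells. For them the excess at both ends follows from that choice and is no further result.

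**Figure D5:**
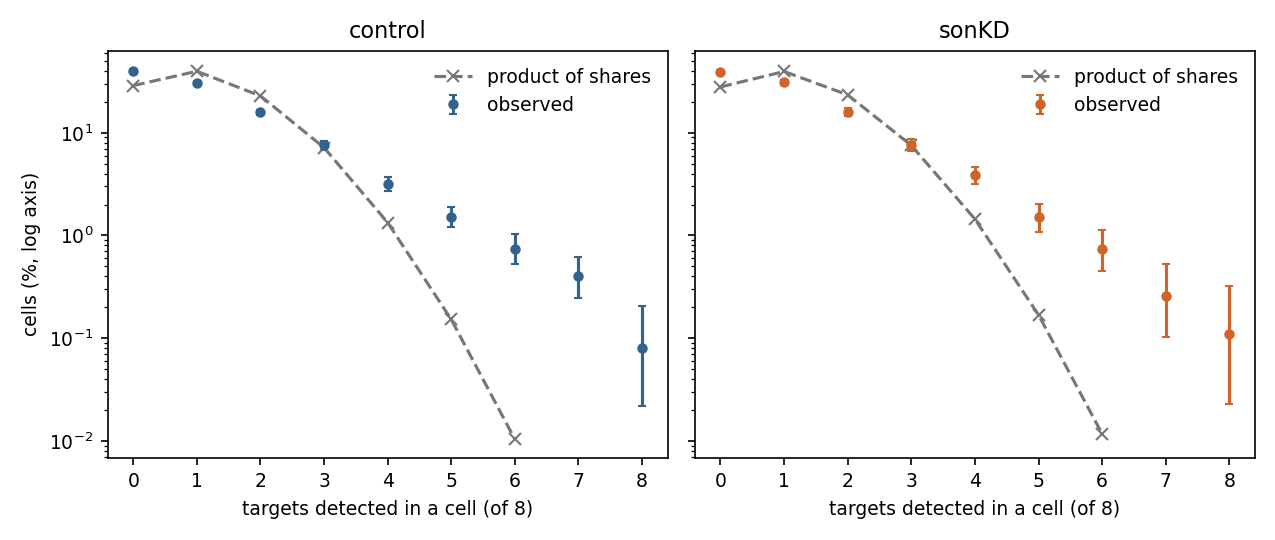
Share of cells (%, log axis) by the number of the 8 genes other than Rps27l and Bax detected at 2500 UMIs, in control (left) and sonKD (right). These genes were set apart for joint detection in these same cells. Points with exact binomial 95% intervals are observed shares and crosses are the product of the single shares, drawn up to 6 targets; observed shares lie above the crosses at 0 targets and from 3 targets on, at 3 by less than the interval (7.53% against 7.16% in control and 7.58% against 7.54% in sonKD).

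The mitochondrial share of a cell moved with the same 8 genes. Cells were split at their library's median share, a split chosen after values were seen. Mdm2 stood at 76.7 CPM in the 2489 control cells with the lower shares and at 270 CPM in the 2489 with the higher shares, a ratio of 3.53 (3.19 to 3.91). In sonKD it stood at 77.9 and 228 CPM, a ratio of 2.93 (2.54 to 3.38). Trp53inp1 had ratios of 3.56 and 3.64, Apaf1 of 3.10 and 2.82, and Cdkn1a, the smallest, of 1.60 and 1.90 in control and sonKD. Rps27l, at 1.03 (0.990 to 1.08) and 1.00 (0.954 to 1.05), did not share this, nor did Bax, at 0.910 (0.867 to 0.954) and 0.990 (0.924 to 1.06). Other genes were not split in this way, so no share over all genes stands beside these ratios. Whether such ratios are particular to the members was not tested.

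Over cells, the summed UMIs of the 8 genes had an r of 0.371 with the mitochondrial percentage in control and 0.363 in sonKD, and of -0.246 and -0.248 with the UMIs a cell had before thinning. The r with the G2/M list was -0.197 and -0.236, with the S phase list -0.193 and -0.209, and with the other p53 pathway list 0.365 and 0.393. Among cells with the lower mitochondrial shares, the intervals were apart in 12 of the 28 pairs in control and in 5 of 28 in sonKD, with median ratios of 1.41 and 1.49. Among cells with the higher shares they were apart in 28 and 25 pairs, with medians of 1.66 and 1.64. The part of mitochondrial share and depth in the joint detection was not tested beyond these values. The nuclear RNA Malat1 had an r of 0.06 and 0.09 with the sum of 8.

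The level of Son in a cell, read as 0 or at least 1 UMI after thinning, left 66.1% of the control library without and 33.9% with Son, and 78.8% and 21.2% of the sonKD library. The sum of the 10 members in cells with Son over cells without was 0.962 (0.936 to 0.988) in control and 0.988 (0.948 to 1.03) in sonKD. Cdkn1a had a ratio of 0.933 (0.793 to 1.10) in control and 1.33 (1.04 to 1.68) in sonKD, where it alone of the members had an interval apart from 1. In control the members with intervals apart from 1 were Phlda3, at 0.888 (0.801 to 0.984), and Rps27l, at 0.935 (0.894 to 0.977). No member was apart from 1 in both libraries. Split by Trp53 in the same way, the sum had ratios of 0.991 (0.966 to 1.02) and 0.954 (0.923 to 0.986), and Mdm2 of 0.894 (0.821 to 0.974) and 0.884 (0.782 to 1.00). Phlda3 had 0.865 (0.786 to 0.952) and 0.821 (0.719 to 0.936). In sonKD, Trp53inp1 had 0.774 (0.625 to 0.958) and Apaf1 0.716 (0.519 to 0.985), and in control Bax had 1.05 (1.002 to 1.10). Every other interval of a member in this split included 1. Neither the Son nor the Trp53 split was called over all genes. The members apart from 1 thus have no share over all genes beside them and are not read as a result about the members. As background, the control of p53 is known to lie mainly in the stability of the protein, which was not measured here. Whether this bears on the ratios of the Trp53 split was not tested.

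Outside the members, the genes whose pattern over cells was most like theirs were ranked by the mean r with the log of 1 plus the sum of the 10, among 5654 genes found in at least 5% of thinned cells of both libraries. The first 10 were Ano3, a membrane protein of the anoctamin family, at 0.256 in control and 0.275 in sonKD, the syndecan gene Sdc4, at 0.203 and 0.265, the antiproliferative gene Btg2, at 0.188 and 0.222, the long noncoding RNA Pvt1, at 0.181 and 0.220, mitochondrial mt-Co3, at 0.204 and 0.196, the phosphatase gene Ptpn14, at 0.211 and 0.188, Tmtc3, at 0.173 and 0.193, Plxdc2, at 0.214 and 0.151, the retinoblastoma gene Rb1, at 0.191 and 0.169, and Wdr35, at 0.185 and 0.174. Over all ranked genes the median of the mean r was -0.01 and the 95th percentile 0.05. Rps27l and Bax, which are part of the sum, had an r with it of 0.572 and 0.469 in control and 0.615 and 0.396 in sonKD. Likeness to this sum is thus not likeness to the other 8 genes alone. Of these 10, Btg2 and Ptpn14 are in the list of other p53 pathway genes. The inhibitor Mdm4 ranked 21st, Trp53 itself 2794th and Son 4231st. The median gene span of the first 10 was 98553 bases beside 27198 over all ranked genes, and over the 5653 genes with a span Spearman's rho between span and r was 0.07, a description across genes, which are not independent replicates.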

How the data were processed

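Single-cell RNA libraries of 1 control and 1 sonKD sample were analysed, grouped by their titles. The deposited values are raw UMI counts, whole numbers for every gene and barcode, made by the authors with Cell Ranger 7.1.0 and genome build mm10, per the submitters' processing notes. Which annotation was used and whether intronic reads were counted is not given in the sources used here, and the labels name different NextSeq instrument models. The libraries held 71046373 and 60352438 UMIs over 1408944 and 1400093 barcodes, of which the kept cells held 40902904 and 32032551.

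Counts were summed over kept cells and divided by the library sum to give CPM. Log2 ratios used no pseudocount and a floor of 3 counts. Genes averaging 10 CPM or more were counted as past the fold when at least 25% higher or 20% lower. With 1 sample per group, intervals at 95% (exact Poisson for sums, Clopper-Pearson for shares, exact conditional binomial for ratios) cover counting error only, and cells are not replicates. Cells were thinned to 2500 UMIs for shares and joint detection. No doublets were removed: Scrublet in scanpy 1.11.5 called 0.0603% and 0.0366% of cells, under the 0.5% of a working call, and an alternative removed the highest scores, 3.98% and 2.20%. Positions are from GENCODE M21 on GRCm38. Alternatives changed the cell limits, scaling (edgeR 4.0.16 TMM), gene filter, thinning depth and seed. The scripts were tested on simulated data.

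The members and lists were chosen with earlier results of these data known. Named genes were the 10 members, 4 regulators of p53, Son, the 3 highest and 3 lowest ratios of the other p53 pathway list, and the 10 genes most like the members over cells.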

Additional observations from a re-analysis of the deposited data

Results flagged for a closer look

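Barcodes past the UMI and gene minimums but over 10% mitochondrial UMIs, 625 in control and 1056 in sonKD, are not among the cells compared. In them 3 of the 10 members were higher in sonKD than in control with an interval above 0, beside 6.65% of the 8716 genes averaging 10 CPM or more in these barcodes, and 1 was lower, beside 22.5%. The log2 ratio was 0.71 for Perp (0.33 to 1.10), 0.61 for Rps27l (0.48 to 0.73) and 0.28 for Ccng1 (0.04 to 0.52), beside 0.47, 0.42 and 0.08 in cells. The 1 lower was Trp53inp1, at -0.51 (-0.78 to -0.24). No difference between these barcodes and cells in a ratio was tested.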

How the results depend on the processing

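No paired analysis was possible because each group holds 1 sample, and for the same reason no replicate could be left out. Counts of members past the fold stayed at 2 higher (Rps27l and Perp) and 0 lower in 7 of 8 alternatives of cell limits, scaling and gene filter. From a mean of 50 CPM, which Perp does not reach, they were 1 and 0. Of 60 recomputed member ratios, 45 moved by less than the counting interval and 15 by more, and none with an interval apart from 0 changed sign. Over these, Rps27l ranged from 0.41 to 0.51 and Perp from 0.46 to 0.59. Cdkn1a (-0.11 to 0.03) and Trp53inp1 (-0.04 to 0.16) crossed 0. TMM scaling moved the median of all genes by 0.09.

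The background moved more. Genes higher and lower by the fold, 282 and 820, were 449 and 370 with TMM, 462 and 493 without ribosomal protein and mitochondrial genes in the total, 169 and 226 from a mean of 50 CPM, and 2723 and 3503 with no gene filter. Without thinning, 9 members had a higher share of positive cells in sonKD with intervals apart and 0 a lower one, in place of 2 and 1. Cells with at least 6 members came to 13.1% of control and 15.7% of sonKD at 5000 UMIs per cell, and to 2.14% and 2.59% at a limit of 5% mitochondrial UMIs. That limit left 15 pairs apart in sonKD, and the cells of lower mitochondrial share 12 pairs of the 8 genes in control and 5 in sonKD, in an alternative chosen after seeing the data; fewer cells carried each gene there. The r of the 8 genes ranged from 0.07, at the limit of 5%, to 0.33 and that of Rps27l and Bax from -0.04 to 0.12. The ratio of Mdm2 between cells with many and few UMIs of the other 9 ranged from 2.60 to 4.16 in control and from 2.66 to 4.80 in sonKD, and that of Trp53inp1 from 2.61 to 4.13 and from 3.17 to 4.91. Against the other genes of the 8 alone, cells with 3 or more such UMIs over cells with 0, Mdm2 had ratios of 10.2 and 8.23 and Trp53inp1 of 11.2 and 9.15, a score chosen after seeing the data from genes picked for joint detection in these cells. At 1 library per group, depth limits only the counting error, and the spread between cultures was not measured.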

Other observations

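Within each library, the barcodes over 10% mitochondrial UMIs held other levels of the members than its cells. Mdm2 was higher in them, at 239 CPM in control and 219 in sonKD, which is 1.70 (1.55 to 1.87) and 1.71 (1.59 to 1.85) times the level in cells. Polk was 2.04 and 2.13 times, Trp53inp1 2.40 and 1.63 times and Apaf1 1.74 and 1.68 times as high as in cells. Cdkn1a, at 0.707 (0.550 to 0.895) and 0.626 (0.511 to 0.759) times, Rps27l, at 0.534 and 0.607 times, and Bax, at 0.559 and 0.602 times, were lower in them. These barcodes had median UMI counts of 2973 and 3140.5, beside 7737.5 and 11612 in cells. Other genes were not compared between these barcodes and cells, so no share over all genes stands beside the values of the members.

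The genes that ran most against the sum of the 10 members over cells, named after their values were seen, were H2afz, a histone variant gene, with an r of -0.210 in control and -0.241 in sonKD, and the nucleolar protein gene Ncl, with -0.215 and -0.231. Hspd1, a mitochondrial chaperonin gene, had -0.187 and -0.206, and the nucleolar gene Npm1 had -0.196 and -0.184. Most UMIs of this sum are from Rps27l and Bax, so these values do not describe the other members alone.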
